A study of Mus musculus with 8 samples.

Results

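Mammary tumours of mice that had received RANK-Fc over 2 successive passages were compared with tumours that had received it in the second passage alone. The comparison holds 6 of the 16 tumours of the series, 3 in each group, chosen by their treatment labels and not by any measured value. RANK-Fc is a soluble decoy made of the RANK receptor and an antibody Fc part, and it binds RANK ligand. Tumour pieces from MMTV-PyMT mice, in which a mouse mammary tumour virus promoter drives the polyoma middle T oncogene in mammary epithelium, were grown in the mammary gland of wild-type FVB mice. Treated mice received RANK-Fc at 10 mg/kg into the peritoneum 3 times a week. All 6 tumours belong to passage 2 and received RANK-Fc there (current treatment, called adjuvant in the labels), and the groups differ by earlier treatment with the same agent (neoadjuvant). The labels carry codes such as FC_FC for treatment in both passages and CT_FC for current treatment alone, and reading the neoadjuvant treatment as that of passage 1 follows from these codes. The fit also used 3 passage 2 tumours with earlier RANK-Fc alone, 2 passage 2 controls, and 2 control and 3 RANK-Fc tumours of passage 1. Each tumour bears a code of its own, but the labels do not tie a passage 2 tumour to the passage 1 tumour it grew from, so the p-values measure the spread between these tumours. Replicate numbers below are names only.

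RANK, encoded by Tnfrsf11a, is a receptor of the tumour necrosis factor family. Its ligand RANKL, encoded by Tnfsf11, is released in the mammary gland under progesterone and acts on neighbouring epithelial cells, in which RANK activates NF-kB. Osteoprotegerin, encoded by Tnfrsf11b, is the natural decoy receptor for the same ligand. In the mammary gland RANK signalling is known for its part in alveolar development and in the maintenance of progenitor cells. Secretoglobins and prolactin-induced protein (Pip), which recur below, are small proteins that exocrine glands such as salivary, lacrimal and mammary glands secrete. The mouse secretoglobins of the 1b and 2b families code for the alpha and the beta or gamma subunits of androgen-binding proteins, which pair into dimers.

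Tumours with RANK-Fc in both passages held far more RNA of Pip and of 7 secretoglobin genes than tumours with current RANK-Fc alone. Across 14131 genes tested by limma, 16 passed an adjusted p under 0.05 (Benjamini-Hochberg over all genes), which is 0.113% of those tested. Of these, 12 were higher (0.0849%) and 4 were lower (0.0283%) with treatment in both passages. Beside Pip and the secretoglobins, the higher genes were Krt23, Etv1, Cpd and Cep68, and the lower ones were Lcn10, P2ry2, Ninj1 and Plau. For each of the 16 genes the 3 tumours of a group lay beyond all 3 of the other. This by itself fixes the direction on the array that carried a tumour of either group, so that array adds no support. Groups that did not overlap were found for 5.81% of all genes as higher and for 4.51% as lower. At an unadjusted p under 0.05 stood 16.1% of all genes, 7.42% higher and 8.68% lower, and 49.1% of all differences were positive. The median difference over all genes was -0.005 on the log2 scale.

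The count rested on the tumours used. It was 286 without current only replicate 1 (2.02% of genes, with 53 or 0.375% higher and 233 or 1.65% lower), 28 without both passages replicate 1, 7 without both passages replicate 2, 6 without both passages replicate 3 and 6 without current only replicate 3. Without current only replicate 2 it was 16, of which 7 were among the 16 named above. Pip, Scgb2b27, Scgb2b2, Scgb2b20, Scgb2b15 and Scgb1b27 passed in each of the 6 fits that left out a tumour, and the other 10 genes lost their call in at least 4 of them. With no dye term no gene passed, 1545 stood at an unadjusted p under 0.05, and the adjusted p of Pip was 0.0771 by limma. With the 6 tumours alone in the fit 2 genes passed, Pip and Scgb1b27, each with an adjusted p of 0.00429 by limma.

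**Figure D1:**
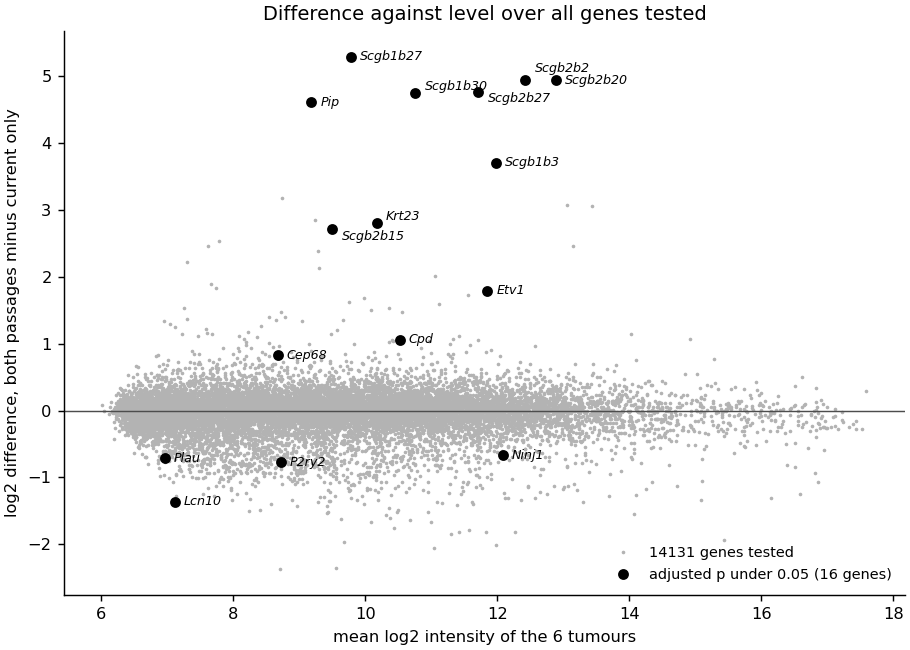
Mean log2 intensity of the 6 tumours (horizontal) against the log2 difference, both passages minus current only (vertical), for 14131 genes as grey points. The 16 genes past an adjusted p under 0.05 are black and named; Pip and the secretoglobins lie between 2.71 and 5.29, far above the bulk of the genes.

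The sequences upstream of the genes with the largest differences are shown here because these genes differed together. RefSeq's table of build GRCm38.p6 held a promoter for 7 of the 8 genes that are Pip or a secretoglobin and passed the test. The 250 bases before the transcription start of 4 of them follow, 5′ to 3′ on the strand of the gene: Pip (chr6:41847299-41847548, plus strand), Scgb2b2 (chr7:31302519-31302768, plus), Scgb2b20 (chr7:33366320-33366569, minus) and Scgb1b27 (chr7:34021231-34021480, plus). Capitals mark matches, on either strand, to TTCNNNGAA (the STAT5 motif), AGAACA (the core of the motif bound by androgen, glucocorticoid and progesterone receptors), TATAAA (the TATA box), GCCNNNGGC (AP-2) and to an NF-kB motif simplified from its consensus.
Pip: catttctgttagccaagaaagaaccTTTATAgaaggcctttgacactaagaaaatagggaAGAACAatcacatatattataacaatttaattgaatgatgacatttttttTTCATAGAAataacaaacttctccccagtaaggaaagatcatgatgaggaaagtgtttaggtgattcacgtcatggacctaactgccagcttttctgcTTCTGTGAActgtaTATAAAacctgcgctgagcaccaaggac
Scgb2b2: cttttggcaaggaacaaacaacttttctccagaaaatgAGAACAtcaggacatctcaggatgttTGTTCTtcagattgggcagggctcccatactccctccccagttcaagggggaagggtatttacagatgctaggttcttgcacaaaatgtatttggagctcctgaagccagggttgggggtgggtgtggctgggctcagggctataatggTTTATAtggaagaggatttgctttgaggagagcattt
Scgb2b20: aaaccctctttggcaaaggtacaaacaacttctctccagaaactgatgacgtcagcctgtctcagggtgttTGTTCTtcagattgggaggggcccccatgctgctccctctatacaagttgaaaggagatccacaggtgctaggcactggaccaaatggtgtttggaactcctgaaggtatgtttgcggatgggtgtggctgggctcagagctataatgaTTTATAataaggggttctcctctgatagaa
Scgb1b27: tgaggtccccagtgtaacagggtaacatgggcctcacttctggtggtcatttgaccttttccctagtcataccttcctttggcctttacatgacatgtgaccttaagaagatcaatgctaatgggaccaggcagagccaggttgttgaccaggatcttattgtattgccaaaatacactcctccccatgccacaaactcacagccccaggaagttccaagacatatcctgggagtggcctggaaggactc

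The Pip window held 2 STAT5 matches, starting 140 and 42 bases before the start, against at least 1 in 7.02% of all 32851 promoters of that length. It also held 1 AGAACA match and 2 TATA matches. Scgb2b2 had 2 AGAACA matches, at 212 and 186 bases, and Scgb2b20 and Scgb2b15 had 1 each, at 179 and 186 bases, against 16.1% of all promoters with at least 1. Each of these 3 also had a TATA match between 30 and 37 bases before the start, where 12.4% of promoters hold a match anywhere in the window. In Scgb2b2 and Scgb2b20 it read TTTATA, a match on the strand opposite to the gene, and Scgb2b15 held a match on either strand. None of the 5 motifs matched in the windows of Scgb2b27, Scgb1b27 and Scgb1b30. By its letters the Scgb2b27 window ended before the stretch that holds the TATA match in Scgb2b2 and Scgb2b15. The lack of a TATA match there thus depends on where the start was placed. AP-2 and NF-kB matches, present in 13.7% and 0.356% of promoters, were in none of the 7 windows. The Scgb2b20 and Scgb2b15 windows were 86.0% identical in a global alignment and Scgb1b27 and Scgb1b30 81.7%. Pip was 47.1% to 51.0% identical to the 6 secretoglobins. Some secretoglobin pairs were no more alike: Scgb2b27 was 42.9% to 45.0% identical to Scgb2b2, Scgb2b15 and Scgb2b20. Pairs of a 1b and a 2b gene ran from 46.1% to 51.9%. A match describes letters only, and no binding was measured.

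Pip had the smallest p of all genes. It was measured at log2 intensities of 10.89, 11.10 and 11.97 in both passages replicates 1 to 3 and at 7.57, 6.61 and 6.96 in current only replicates 1 to 3. The lowest tumour treated in both passages thus stood more than 3 log2 units above the highest one treated in passage 2 alone. The fit, which adjusts for dye, gave a difference of 4.61 ± 0.38 (SE), or 24.4-fold, with an adjusted p of 0.000455 (limma). Signal was above background in 2 of the 3 current only tumours.

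Of the beta and gamma subunit genes, Scgb2b20 reached 14.51, 14.81 and 16.21 in the tumours treated in both passages and 10.99, 11.01 and 9.76 in those with current treatment alone. The difference was 4.94 ± 0.53 (SE), 30.7-fold (adjusted p = 0.00175 by limma). Scgb2b2 stood at 14.04, 14.44 and 15.64 against 10.56, 10.54 and 9.34. In both genes replicate 3 of the both passages group was highest and replicate 3 of the current only group lowest. Scgb2b2 differed by 4.95 ± 0.52 (SE, adjusted p = 0.00175 by limma). Scgb2b27 stood at 13.20, 13.43 and 15.11 against 9.91, 9.64 and 9.0, a difference of 4.76 ± 0.47 (SE, adjusted p = 0.00145 by limma) and of 3.46 by its other probe. Scgb2b15, the least bright of the 4, stood at 10.35, 10.70 and 11.25 against 8.46, 8.13 and 8.13. Its difference was 2.71 ± 0.29 (SE), or 6.57-fold (adjusted p = 0.00175 by limma).

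Of the alpha subunit genes, Scgb1b27 was measured at 11.75, 12.38 and 12.64 with treatment in both passages and at 7.71, 6.69 and 7.56 with current treatment alone. It was above background in 2 of the 3 current only tumours. Its difference was 5.29 ± 0.63 (SE), 39.1-fold (adjusted p = 0.00453 by limma). Scgb1b30 stood at 13.18, 12.83 and 13.12 against 9.32, 6.85 and 9.26, and Scgb1b3 at 13.96, 13.68 and 13.67 against 10.79, 9.07 and 10.74. For these 3 alpha genes the lowest tumour was current only replicate 2, while for Scgb2b2, Scgb2b20 and Scgb2b27 it was replicate 3. Scgb1b30 differed by 4.75 ± 0.68 (SE, adjusted p = 0.0201 by limma), but its other probe by 0.77. Scgb1b3 differed by 3.71 ± 0.58 (SE, adjusted p = 0.0346 by limma). Scgb1b30 passed in 2 of the 6 fits without a tumour, those without current only replicate 1 and both passages replicate 1, and Scgb1b3 in 1, without current only replicate 1. Members of these families are near-identical copies, so a probe may take up RNA of several of them and the values of single members are uncertain.

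Further secretoglobins did not pass. Scgb1b20 stood at 10.58, 10.23 and 9.93 against 7.78, 6.13 and 7.78, a difference of 3.18 ± 0.58 (SE, adjusted p = 0.0608 by limma). Scgb2b26, at 7.29, 8.05 and 9.53, was above background in all 3 tumours treated in both passages and in none of the others, where it read 6.15, 6.26 and 6.56. The groups lay at least 3.79-fold apart (adjusted p = 0.0757 by limma). That bound sets the mean of the brighter group against the lowest signal well above background on each array of the dimmer one, as a point value. Scgb1c1 differed by 0.87 ± 0.65, Scgb1b7 by 0.49 ± 0.45, Scgb1b10 by -0.04 ± 0.25 and Scgb3a1 by 0.00 ± 0.11 (SE each). Scgb2b15, Scgb1c1 and Scgb1b10 were not on the list of 22 secretoglobin genes. Of those 22, 19 were on the array and 10 passed the filter on dim probes. Of these 10, 6 rose and none fell, against 0.0849% and 0.0283% of all genes, with a median of 4.23 and list means per tumour that did not overlap. The filter favours genes that are bright in a group: with no filter 6 of 19 rose and the median was 0.45. Among the 9 left out, Scgb2b24 was above background in 2 of 3 tumours with treatment in both passages (6.32, 6.52 and 7.35) and in none of the others (6.13, 6.10 and 6.12).

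**Figure D2:**
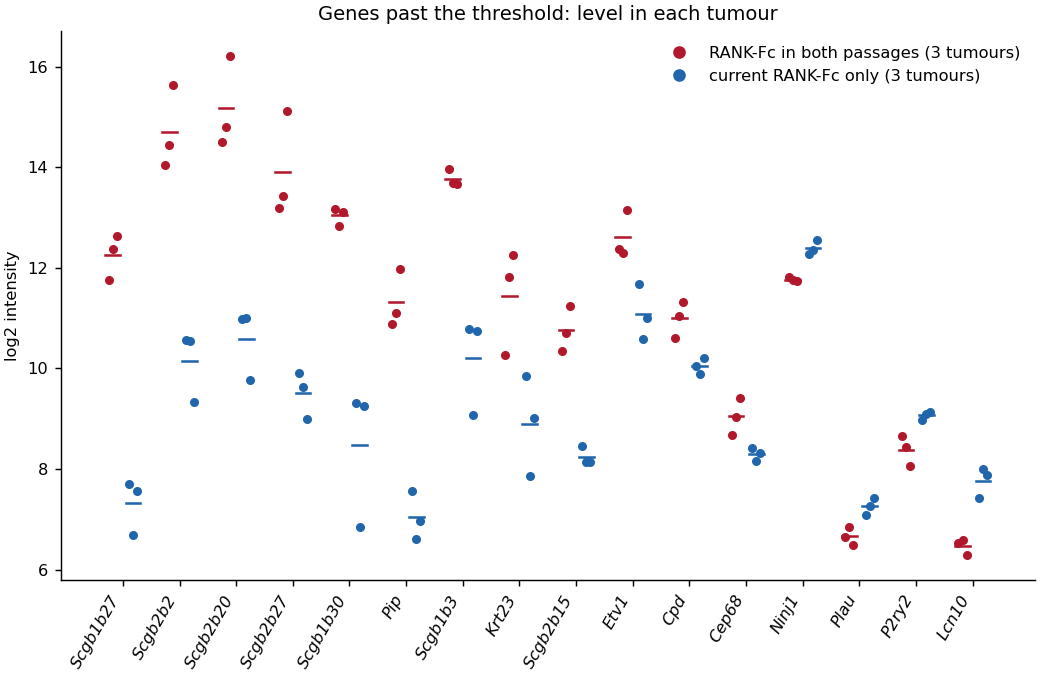
Log2 intensity in each tumour of the 16 genes past the threshold, ordered by difference, with a line at each group mean (3 tumours a group). In every gene the red points (both passages) and blue points (current only) do not overlap; replicate 2 of the current only group lies low for Scgb1b30 at 6.85.

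Krt23, an epithelial keratin, stood at 10.27, 11.81 and 12.26 with treatment in both passages against 9.85, 7.85 and 9.01, a difference of 2.81 ± 0.43 (SE, adjusted p = 0.0346 by limma). Its groups came within 0.5 log2 units of each other at their nearest tumours. Etv1, an ETS family transcription factor, stood at 12.38, 12.29 and 13.15 against 11.68, 10.58 and 11, a difference of 1.79 ± 0.28 (SE, adjusted p = 0.0346 by limma; 0.73 by its other probe). Cpd, a carboxypeptidase of the secretory pathway, stood at 10.61, 11.05 and 11.33 against 10.05, 9.88 and 10.21, a difference of 1.06 ± 0.15 (SE, adjusted p = 0.0208 by limma; 0.59 by its other probe). Cep68, a centrosomal protein gene, stood at 8.68, 9.04 and 9.42 against 8.42, 8.15 and 8.32, a difference of 0.83 ± 0.14 (SE, adjusted p = 0.0449 by limma; 0.51 by its other probe). In each of the 4 the highest tumour was both passages replicate 3. Krt23, Cpd and Cep68 kept their calls without current only replicate 1 or both passages replicate 1, and Etv1 without current only replicate 1. They lost them in the remaining fits that left out a tumour of the comparison.

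On the lower side, Lcn10, a lipocalin, stood at 6.52, 6.58 and 6.29 with treatment in both passages against 7.42, 7.99 and 7.88, a difference of -1.36 ± 0.19 (SE, adjusted p = 0.0167 by limma). It was above background in 1 tumour of the first group and in all 3 of the second. P2ry2, a purinergic receptor, stood at 8.65, 8.44 and 8.05 against 8.98, 9.09 and 9.14, a difference of -0.77 ± 0.12 (SE, adjusted p = 0.0346 by limma). Ninj1, a cell surface protein gene, stood at 11.81, 11.75 and 11.74 against 12.27, 12.35 and 12.56, a difference of -0.67 ± 0.11 (SE, adjusted p = 0.0452 by limma). Plau, which codes for urokinase, stood at 6.65, 6.84 and 6.48 against 7.09, 7.27 and 7.43, a difference of -0.71 ± 0.12 (SE, adjusted p = 0.0477 by limma). With the scanner software's processed signals Lcn10 differed by -3.16 and did not pass (adjusted p = 0.087 by limma), Plau differed by -1.83 and passed (adjusted p = 0.0444 by limma), and Ninj1 and P2ry2, at -0.64 and -0.92, did not pass (adjusted p = 0.068 and 0.0594 by limma). Without current only replicate 1 all 4 genes passed. Lcn10 and P2ry2 also passed without both passages replicate 1, and Plau without current only replicate 2, and in the remaining fits that left out a tumour none of the 4 did.

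Genes just past these did not pass. On the higher side they were Mien1 (0.69 ± 0.12), the noncoding D030028A08Rik (0.67 ± 0.12), Gdpd1 (1.21 ± 0.21) and the growth hormone receptor gene Ghr (0.79 ± 0.14, SE each), each with an adjusted p of 0.055 (limma). On the lower side they included Gdpd3 (-1.24 ± 0.23) and the glucose transporter gene Slc2a1 (-1.23 ± 0.22, SE each), each with an adjusted p of 0.0608 (limma). The serotonin receptor gene Htr2b differed by -1.40 ± 0.26, the chemokine gene Cx3cl1 by -0.77 ± 0.15 and the glycogen phosphorylase gene Pygl by -1.39 ± 0.27 (SE each), with non-overlapping groups.

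The levels of Pip and the secretoglobins in the remaining groups place this difference. In passage 1, Pip stood at 11.08 ± 1.97 in controls (SD, n = 2) and 13.84 ± 0.83 with RANK-Fc (SD, n = 3). In passage 2 it stood at 6.27 ± 0.45 in controls (n = 2), 7.05 ± 0.49 with current RANK-Fc alone, 9.62 ± 0.47 with earlier RANK-Fc alone and 11.32 ± 0.57 with both (SD, n = 3 each). The order of the passage 2 means was thus control, current only, earlier only and both. The highest control, at 6.58, lay just under the lowest current only tumour, at 6.61, and the 3 tumours with earlier treatment alone lay between those of the groups compared here without overlap. Scgb2b20 had the same order, at 10.39 ± 0.80, 10.59 ± 0.72, 12.81 ± 1.15 and 15.17 ± 0.91, against 14.82 ± 1.37 and 15.64 ± 0.89 in passage 1 controls and RANK-Fc tumours. Scgb1b27 ran from 6.78 ± 0.06 through 7.32 ± 0.55 and 9.39 ± 1.42 to 12.26 ± 0.46, against 12.16 ± 2.85 and 12.69 ± 0.76 in passage 1. In both genes the control and current only groups overlapped, and the tumours with treatment in both passages overlapped with passage 1 tumours. Krt23 differed in its pattern: it stood at 11.53 ± 0.42 with earlier RANK-Fc alone and at 11.45 ± 1.04 with both, which overlapped, against 8.91 ± 0.13 in controls. Lcn10 was above background in all 3 tumours with current RANK-Fc alone and in 2 of the other 13, and Ninj1 and Plau were lowest on average in the tumours with treatment in both passages.

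**Figure D3:**
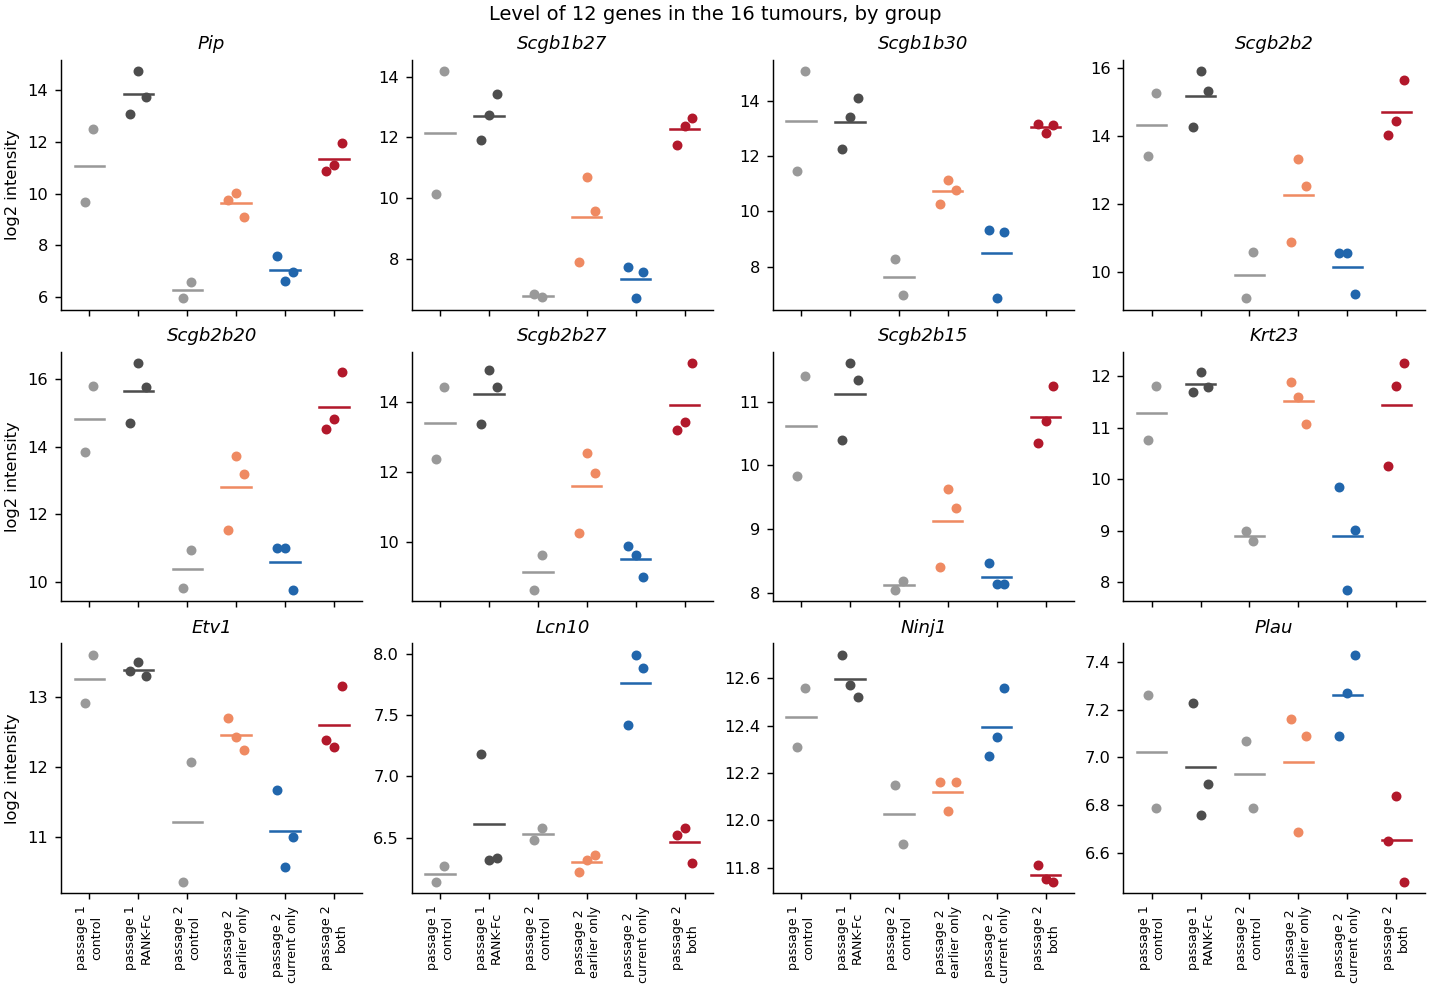
Log2 intensity of 12 of the 16 genes in all 16 tumours by group, with a line at each group mean and its own vertical axis, not starting at 0, in each panel. For Scgb2b20 the current only tumours (mean 10.59) lie among the passage 2 controls (10.39), the earlier only tumours in between (12.81), and the tumours treated in both passages (15.17) among those of passage 1.

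Earlier RANK-Fc can also be asked about in tumours without current treatment, as earlier only minus control in passage 2. There 1 gene passed by limma (0.00708% of 14131), and 7.52% stood at an unadjusted p under 0.05. That gene was Pip, at 3.50 ± 0.42 (SE, adjusted p = 0.0251 by limma), beside 4.61 ± 0.38 in tumours with current treatment. The values for Scgb1b27 were 2.90 ± 0.69 and 5.29 ± 0.63, for Scgb2b2 2.64 ± 0.56 and 4.95 ± 0.52, and for Scgb2b15 1.13 ± 0.32 and 2.71 ± 0.29 (SE each). For Cpd they were 1.06 ± 0.17 and 1.06 ± 0.15, and for Krt23 2.62 ± 0.47 and 2.81 ± 0.43. All 12 higher genes had a positive difference in either background. For the 4 lower genes the values without current treatment did not pass: P2ry2 stood at -0.28 ± 0.13, Lcn10 at -0.23 ± 0.20, Plau at -0.02 ± 0.13 and Ninj1 at 0.07 ± 0.12 (SE each).

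Whether the 2 differences themselves differ was tested as an interaction contrast of the 11 tumours of passage 2, within the fit of all 16. No gene passed by limma (0%), and 6.25% of genes, 883 in number, had an unadjusted p under 0.05. No adjusted p was below 0.604. The 16 genes were chosen by a difference that is itself a term of this contrast, so their interaction values are a description. The interaction was 1.59 ± 0.42 for Scgb2b15 (SE) and -0.74 ± 0.16 for Ninj1 (SE). For Cpd it was 0.00 ± 0.22. This test rests on 2 controls. Without current only replicate 2, 3 genes passed it, and without passage 2 control replicate 1, 1 gene did.

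**Figure D4:**
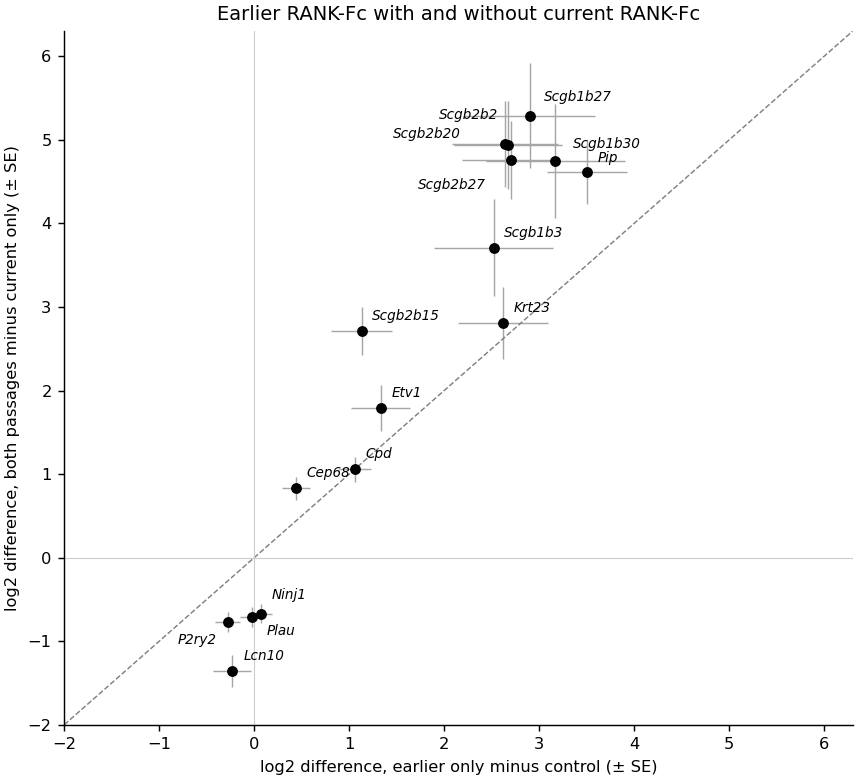
Log2 difference of earlier only minus control (horizontal) against both passages minus current only (vertical) for the 16 genes, with bars of 1 SE of the fit and a dashed line where the 2 are equal. The secretoglobins lie above the line, Cpd lies on it at 1.06, and the 4 lower genes lie between -0.28 and 0.07 on the horizontal axis.

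Genes of the RANK pathway were examined as a list. Tnfrsf11a, the receptor that RANK-Fc mimics, stood at 12.41, 12 and 12.16 with treatment in both passages and at 12.31, 12.42 and 13.01 with current treatment alone. The groups overlapped, and the difference of -0.44 ± 0.18 did not pass (SE, adjusted p = 0.262 by limma). Tnfrsf11b stood at 6.78, 8.51 and 7.0 against 7.16, 7.56 and 8.37, a difference of -0.32 ± 0.38 (SE, adjusted p = 0.709 by limma). Tnfsf11 was above background in none of the 6 tumours and was not tested. None of the 18 measured pathway genes passed, 13 had a negative difference and the median was -0.17. The lowest was Relb of the alternative NF-kB branch at -0.56 ± 0.21 (SE), and Ccnd1, which codes for cyclin D1, stood at 0.41 ± 0.19 (SE). Of 19 NF-kB target genes 15 had a negative difference, with a median of -0.46, and none passed. The median ran from -0.64 without both passages replicate 3 to -0.27 without current only replicate 2. The acute phase gene Saa3 differed by -1.82 ± 0.53, Tnfaip2 by -0.94 ± 0.23 and the adhesion molecule gene Vcam1 by -0.91 ± 0.35 (SE each). Each of these passed as lower without current only replicate 1, as did 1.65% of all genes. For all of them that tumour lay within the range of the tumours treated in both passages. Leaving it out widens the difference, so these calls are a description and no support.

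Other secreted proteins did not follow Pip as a class. Of 19 measured gland secretory genes, Pip rose and Lcn10 fell, 2 in all, and the median was 0.03. Car6, a secreted carbonic anhydrase of salivary gland, stood at 14.09, 13.92 and 15.40 with treatment in both passages and 11.61, 12.52 and 10.82 with current treatment alone, without overlap. Its difference of 3.08 ± 0.56 did not pass (SE, adjusted p = 0.0608 by limma) and did without current only replicate 1 or 2. Replicate 2 lay nearest the other group, so these calls are a description. Further members of the list, genes of salivary and lacrimal gland, were chosen for mention after their values were seen. Dcpp3 overlapped between the groups: it stood at 10.27, 9.17 and 7.73 against 11.04, 6.34 and 6.72. Klk1 differed by -0.01 ± 0.26, and the amylase gene Amy1 by -0.06 ± 0.20 (SE each). Prol1, at 8.95, 6.72 and 7.52 against 6.65, 6.44 and 6.42, and Smr2, at 6.54, 6.62 and 6.57 against 6.52, 6.53 and 6.32, did not overlap. They differed by 1.25 ± 0.60 and 0.16 ± 0.46 (SE each) and did not pass. The mean level of the whole gland list ran from 9.44 to 9.85 with treatment in both passages and from 9.05 to 9.49 with current treatment alone. The part of such gland tissue in the Pip and secretoglobin values was not tested.

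Milk protein genes, 29 in all, had 22 negative differences, a median of -0.51 (-0.32 without current only replicate 3), and none passed. Csn2, the beta casein gene, stood at 15.51, 13.07 and 14.69 against 15.09, 16.24 and 17.98, a difference of -1.93 ± 1.28 (SE). Lalba, which codes for alpha lactalbumin, differed by -1.30 ± 0.47 and Wap, the whey acidic protein gene, by 0.10 ± 0.47 (SE each). Current only replicate 3 was highest for Csn2, and the groups overlapped. Of 14 genes of the prolactin, STAT5 and Elf5 axis none passed, with a median of -0.12: Ghr stood highest, Cish and Socs3, which are STAT targets, at -0.42 ± 0.15 and -0.43 ± 0.14, Elf5 at -0.13 ± 0.18 and the prolactin receptor gene Prlr at -0.12 ± 0.17 (SE each). Of 30 milk lipid and cholesterol genes 16 were positive and none passed, with a median of 0.01. Dhcr7, an enzyme of cholesterol synthesis, stood at 0.77 ± 0.18, the desaturase gene Scd2 at 0.44 ± 0.11 and the fatty acid binding protein gene Fabp3 at -2.37 ± 0.69 (SE each). The last rested on levels of 7.44, 7.86 and 7.56 against 7.99, 9.81 and 11.61, and it passed without current only replicate 1. That tumour lay nearest the other group, so this call is a description and no support.

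The epithelial identity genes of the tumours lay close together. Mean levels of 16 general luminal genes ran from 11.51 to 11.69 with treatment in both passages and from 11.50 to 11.59 without the earlier one, and Krt8, Krt18 and Epcam were above background in all 6 tumours. None of the 16 passed, with a median of 0.04. Spdef, a transcription factor of secretory epithelium, stood at 11.39, 12.19 and 13.41 against 10.66, 11.13 and 10.56, a difference of 1.73 ± 0.35 (SE, adjusted p = 0.0753 by limma). It passed without both passages replicate 1 or current only replicate 2. Those were the tumours nearest the other group, so leaving either out widens the difference and the calls are a description. Tfap2b, an AP-2 transcription factor, stood at 10.09, 10.38 and 10.70 against 9.86, 8.17 and 6.48, a difference of 2.38 ± 0.59 (SE, adjusted p = 0.115 by limma). It was above background in 2 of the 3 current only tumours and lowest in replicate 3, and it passed without current only replicate 1 (adjusted p = 0.00329 by limma). That tumour lay nearest the other group, so leaving it out widens the difference and the call is a description. In that fit 2.02% of all genes passed. The related Tfap2c and Tfap2a differed by -0.14 ± 0.19 and -0.06 ± 0.17 (SE each). Luminal progenitor genes (15 tested, median -0.05), hormone-sensing genes (16, -0.09) and basal genes (18, -0.26) held no gene that passed. Among them the channel gene Kcnn4 stood at 0.62 ± 0.17, the oxytocin receptor gene Oxtr at 0.89 ± 0.29, Krt14 at -0.82 ± 0.30 and the milk fat globule gene Mfge8 at -0.84 ± 0.30 (SE each). The hormone-sensing list means did not overlap, at -0.08, -0.03 and -0.10 against -0.01, 0.01 and 0.19. In that list Esr1 differed by -0.36 ± 0.22, Pgr by 0.09 ± 0.14 and Foxa1 by 0.27 ± 0.29 (SE each).

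Proliferation genes, 28 in all, had a median of 0.03, and none passed. The growth marker gene Mki67 stood at 0.17 ± 0.14, Birc5, which codes for survivin, at 0.42 ± 0.15, and the cyclin E1 gene Ccne1 at -0.40 ± 0.13 (SE each). Of 18 survival and death genes 14 were negative, with a median of -0.14. The pro-apoptotic Bcl2l11 stood at -0.35 ± 0.13 (SE). Of 24 hypoxia and glycolysis genes 22 were negative, with a median of -0.43, and 12 had an unadjusted p under 0.05 as lower, against 8.68% of all genes. Without both passages replicate 3, in which the list mean was lowest, the median was -0.21 and 3 genes had such a p, and without current only replicate 3 it was 6 genes. Over all genes, 1789 and 1143 had an unadjusted p under 0.05 in either direction in these fits, against 2275 with all tumours. Slc2a1 stood at 11.74, 11.96 and 10.85 against 12.63, 12.47 and 12.97, and Ndrg1, a hypoxia-induced gene, at 12.90, 13.34 and 11.73 against 13.79, 13.68 and 14.34. Neither overlapped, and both were lowest in both passages replicate 3. Among 19 epithelial-mesenchymal genes all were negative, with a median of -0.49, and 8 had an unadjusted p under 0.05. The list means were -0.29, -0.24 and -0.19 against -0.12, 0.02 and 0.81, so current only replicate 3 stood apart, as it did for fibroblast and matrix markers (1.55). Without that tumour the median was -0.20 and 3 genes had such a p, in the fit where the number over all genes also fell from 2275 to 1143. Without current only replicate 2 the median was -0.77. The part of fibroblast RNA in these values was not tested. S100a4 differed by -1.45 ± 0.34 (SE). No gene of these 2 lists passed. Among 19 immediate early genes Nr4a1 stood at 0.91 ± 0.20 and Egr2 at -0.61 ± 0.18 (SE each), with a median of -0.07. Unfolded protein, Wnt, Notch, ErbB and squamous genes had medians of -0.11, -0.25, 0.00, -0.04 and -0.28 and no gene that passed.

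**Figure D5:**
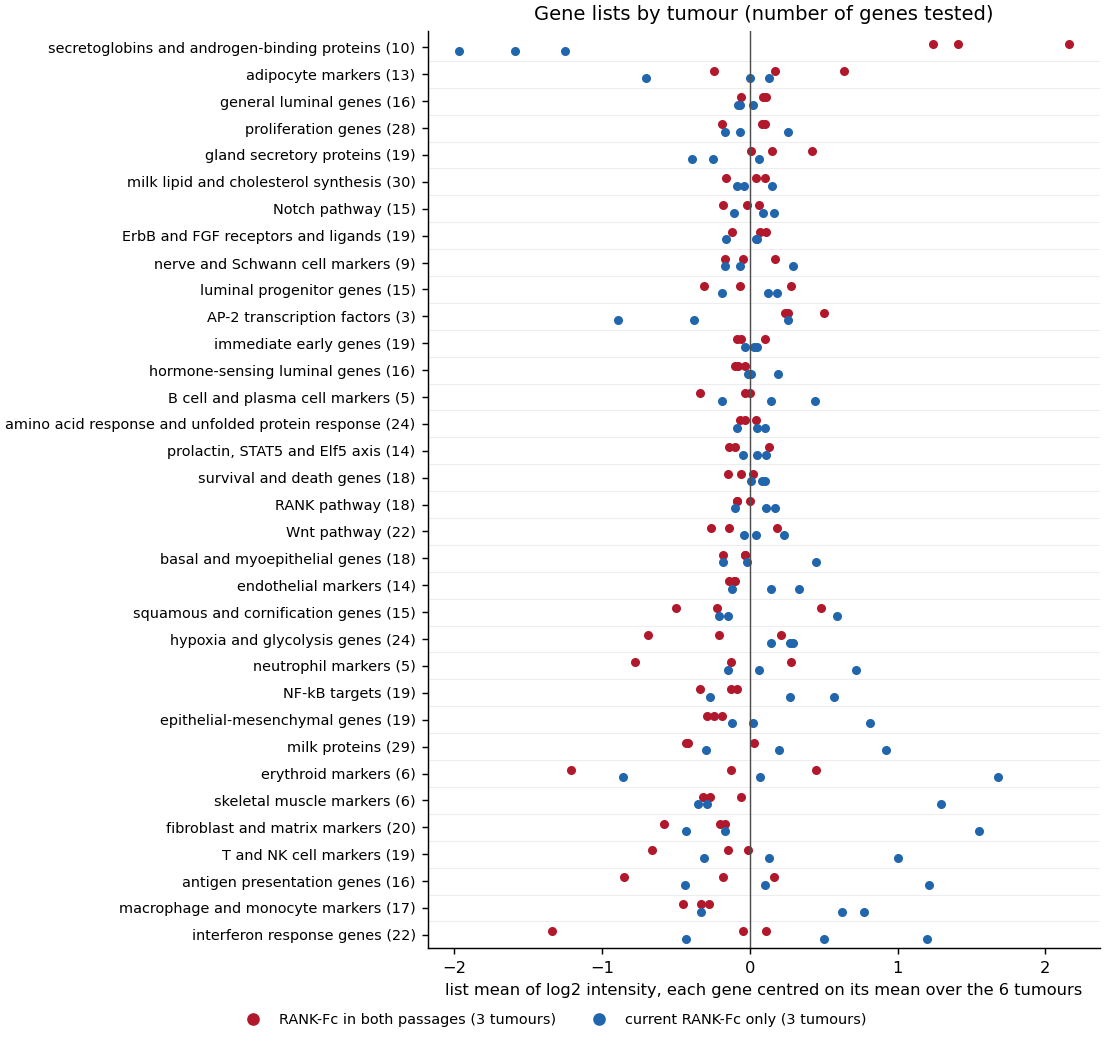
Mean log2 intensity of each gene list in each tumour, after centring every gene on its mean over the 6 tumours, for 34 lists ordered by median difference (3 tumours a group, number of genes tested in brackets). The secretoglobins part the groups by more than 2 log2 units; in the macrophage list current only replicate 1 lies with the tumours treated in both passages at -0.33, and in the fibroblast list current only replicate 3 stands apart at 1.55.

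Of the marker lists of other cell types, those of macrophages, T and NK cells, B cells, neutrophils, fibroblasts, endothelium and erythroid cells held negative differences alone, and no gene of them passed with all tumours in the fit. In tissue RNA, fewer cells of a type and less RNA per cell cannot be told apart. All 17 measured macrophage and monocyte markers had a negative difference, with a median of -0.88, and 15 had an unadjusted p under 0.05 as lower, against 8.68% of all genes. Without current only replicate 3 it was 9. In that fit 1143 of all genes had such a p in either direction, against 2275 with all tumours. None passed over all genes. The complement gene C1qc stood at 11.58, 11.72 and 11.02 against 11.42, 12.78 and 12.51 and Ms4a7 at 10.35, 10.87 and 10.23 against 10.88, 11.75 and 12.46. Current only replicate 1 lay with the tumours treated in both passages for C1qc and close to them for Ms4a7. Without it 12 of 17 fell, against 1.65% of all genes in that fit, among them C1qc, the lysozyme gene Lyz2, the colony stimulating factor receptor gene Csf1r, Adgre1 and Cd68, and the median was -1.19. Leaving out a tumour that lies with the other group in these same values widens the difference, so this count is a description and no support. In the fit with all tumours Ms4a7 differed by -1.36 ± 0.29 (SE, adjusted p = 0.0964 by limma).

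Interferon response genes were all negative, 22 of 22, with a median of -1.03 that rested on single tumours. It was -0.39 without both passages replicate 2 and -1.77 without both passages replicate 3. Their list means were -0.05, -1.34 and 0.11 with treatment in both passages and -0.43, 1.20 and 0.50 with current treatment alone, so the groups overlapped. Oasl2, an interferon-induced gene, stood at 11.66, 9.72 and 10.76 against 10.81, 13.27 and 12.34, a difference of -1.81 ± 0.66 (SE, adjusted p = 0.218 by limma). Antigen presentation genes (16 of 16 negative, median -0.75) and T and NK cell markers (19 of 19 negative, median -0.68) had the same high and low tumours, current only replicate 2 and both passages replicate 2. Without both passages replicate 2 their medians were -0.33 and -0.37, and without both passages replicate 3 they were -1.15 and -1.03. The class II gene H2-Aa differed by -1.30 ± 0.47 and the T cell kinase gene Lck by -1.04 ± 0.33 (SE each), and no gene of the 3 lists passed.

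Fibroblast and matrix markers, 20 of 20 negative with a median of -0.68, rested on current only replicate 3. The list mean was 1.55 there and between -0.58 and -0.17 in the remaining 5 tumours, and the median was -0.09 without it. Col1a2, a collagen gene, stood at 13.44, 13.93 and 13.36 against 13.70, 13.80 and 16.39. Skeletal muscle markers (6 tested, median -0.64) were at 1.29 in the same tumour and between -0.35 and -0.06 in the rest, and the median turned to 0.08 without it. Erythroid markers (6 tested, median -0.58) were at 1.68 there, and the median turned to 0.22 without it. Endothelial markers (14 of 14 negative, median -0.27, -0.06 without current only replicate 3), neutrophil markers (5 tested, -0.45, -0.12 without it), adipocyte markers (13, 0.05), B cell markers (5, -0.09) and nerve markers (9, -0.05) held no gene that passed. In current only replicate 3, the tumour high in fibroblast and muscle markers, Scgb2b2, Scgb2b20 and Scgb2b27 were lowest of all 6 tumours. Without that tumour Scgb2b2 differed by 4.31 (adjusted p = 0.00339 by limma) and Pip by 4.35 (adjusted p = 0.00339 by limma). The part of fibroblast and muscle tissue in these differences was not tested.

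Across all genes, pairs of tumours from different groups included both the most and the least alike. The correlation of log2 intensities over 14131 genes was highest, at 0.9904, between current only replicate 1 and both passages replicate 1, and lowest, at 0.9618, between current only replicate 3 and both passages replicate 3. It ran from 0.971 to 0.9893 among the tumours treated in both passages and from 0.9742 to 0.9813 among those with current treatment alone. Genes are not independent replicates. Between 47.5% and 56.5% of spots were well above background in the 16 channels, and no spot was saturated. Precision is limited by how few arrays there were.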

How the data were processed

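RNA of 16 tumours was hybridised to 8 Agilent 2-colour mouse arrays, 1 tumour per channel, and scanner images were quantified in Agilent Feature Extraction 10.7.3.1 (version per the submitters' processing notes). The deposited files give median spot and local background intensity on a linear scale, not normalised between arrays, processed intensity corrected for background and dye, the log10 ratio of red over green, and other quality marks coded 0 or 1 per spot, per the file headers. The deposited ratio ran with red over green on each array (r from 0.848 to 0.933), which shows the sense of the ratio alone. Which tumour was in which dye was taken from the labels and was not tested. All arrays carried 1 slide and 1 scan time, so no such batch could be modelled. A deposited table with 8 columns that match no label was not used.

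Median intensities were corrected by normexp (offset 50), normalised by loess and Aquantile and kept as log2. Outlier and non-uniform spots (239 to 337 per array) were set to missing, which left 14 of the genes tested with missing values, fitted on the channels that remained. Probes were named by accession through RefSeq's table (GRCm38.p6, names only, since the array design is mm9): 28026 of 55681 probes had a symbol. Probes were kept if some group, of the 6, had all its tumours well above background, and each gene was read from its brightest kept probe.

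limma 3.58.1 (R 4.3.3, statmod 1.5.0) fitted the 16 channels with 6 group means, a dye term and the intraspot correlation, then eBayes (9 residual degrees of freedom). limma's estimate of that correlation, 0.375, was biased upward in simulations of this design and was replaced by the calibrated 0.17. The fit was tested on simulated data. Dyes were not balanced: 2 of 3 tumours treated in both passages and 1 of 3 with current treatment alone were in Cy5. Fold changes are on the log2 scale with the SE of the fit, and tumour values and SDs are not adjusted for dye. Promoters were aligned with Biopython 1.88 and figures drawn with matplotlib 3.10.9.

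Named genes are the 15 with the smallest p in each direction, all that passed, and in each list the passing members and the 3 with the smallest p, plus Pip, the secretoglobins, the RANK genes and defining markers of cell type lists that part the groups or where 1 tumour stands apart. Further genes named (Dcpp3, Klk1, Amy1, Smr2, Prol1, Csn2, Lalba, Wap, Elf5, Prlr, Krt8, Krt18, Mki67 and macrophage genes that passed without a tumour) were picked with values known. Some genes that the rule names are not reported here. The groups and the 34 gene lists were chosen with earlier results of these data known. Alternatives are given in the closing section.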

Additional observations from a re-analysis of the deposited data

How the results depend on the processing

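The number of genes past the threshold (16, with 12 higher and 4 lower) was 25 with quantile normalisation (21 higher), 57 with median centring (37 and 20), 110 with the intraspot correlation as limma estimates it (59 and 51), 2 with the 6 tumours alone (2 and 0) and 0 with no dye term (0 and 0). The lower genes numbered 2 with processed signals, 1 with the filter on all 16 channels and 1 with an intraspot correlation of 0. The calls among listed genes (8) became 15, 20, 2 and 0 with median centring, limma's intraspot correlation, the 6 tumours alone and no dye term, and 5 with the filter on all 16 channels, which leaves out Pip, Scgb1b27 and Lcn10. Leaving out 1 tumour gave 6 to 286 genes, 6 to 53 higher, 0 to 233 lower, and 5 to 36 listed genes. The interaction count of 0 ranged from 0 to 3 in the 11 fits without a tumour of passage 2 and stayed 0 in the 12 other settings where it was refitted. The cause of these changes was not tested.

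Pip passed in 11 of the 12 other settings it was tested in, with differences from 4.19 to 6.73, and Scgb2b2 in 11 of 13 (4.51 to 5.11). Differences near 0 changed sign: Scgb3a1 stood at 0.04 with processed signals, 0.01 with quantile normalisation or limma's intraspot correlation, 0.02 with median centring and 0.00 with no filter. With median centring Pou2af1 stood at 0.03, Scgb1b10 at 0.05 and Tfap2a at 0.02, and with limma's intraspot correlation Pou2af1 at 0.00. Without 1 tumour the ranges were -0.05 to 0.05 for Scgb3a1, -0.22 to 0.05 for Pou2af1, -0.28 to 0.36 for Scgb1b10, -0.24 to 0.24 for Tfap2a, -0.56 to 0.10 for Acsl1, -0.79 to 0.04 for Alas2, -1.23 to 0.01 for Hbb-b1, -1.30 to 0.21 for Hbb-bt, -1.92 to 0.05 for S100a9, -0.15 to 1.55 for Cfd, -0.30 to 0.66 for Plin1 and -0.06 to 0.70 for Scgb1b7. None of these passed. The median of all genes moved by less than 0.1 under each scaling.

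No paired analysis was possible because the labels give the tumours no replicate numbers. With 3 tumours a group, differences of the size of the lower genes passed or failed with the tumours used, and probes near background understate differences.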
